A study of Homo sapiens with 8 samples.

Results

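The nucleolar ribosome biogenesis factors described here are the protein-coding genes of the deposited table whose symbol is NOP, UTP, NOL, RRP or NOC followed by a number and, in some cases, letters. This rule on names, which uses no measured value, found 40 genes among the 17010 of the table, of which 13068 are protein-coding. They were measured by RNA-seq in PC3 cells, an established human prostate cancer line, grown in 3D culture in medium with 3% serum. There are 4 groups of 2 libraries. Cells given pladienolide B at 0.5 µM for 24 h were set against cells given the solvent dimethyl sulfoxide (DMSO). Cells in which SF3B2 was depleted with a small interfering RNA (siRNA) for 72 h were set against cells given a control siRNA. SF3B2 is a subunit of SF3b, the complex that helps the U2 particle of the spliceosome to find the branch point of an intron. Pladienolide B is a macrolide made by a bacterium that binds SF3b and blocks splicing. The labels do not state that the libraries of a group are separate cultures, so the p-values measure the spread between libraries, which may be technical.

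Ribosomes are put together in the nucleolus, where RNA polymerase I makes one long precursor of the ribosomal RNAs (rRNA). Small nucleolar ribonucleoproteins (snoRNPs) guide chemical changes of that precursor, the small subunit processome folds and cuts its 18S part, and a separate set of factors builds the large subunit around the 28S and 5.8S parts. Prominent nucleoli are a long-known feature of prostate cancer cells, and MYC, a transcription factor that binds the E-box CACGTG, drives many genes of this pathway. By role, 3 of the 40 genes encode core proteins of snoRNPs, 22 act on the small subunit and 12 on the large subunit. The other 3, NOL3, NOL4 and NOL4L, match the naming rule but were assigned no role in making ribosomes.

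With pladienolide B most of these genes rose, while a smaller group fell. All 40 passed the filter on low counts, and 22 were called higher and 8 lower than in DMSO at an edgeR adjusted p under 0.05. Calls were common throughout this comparison, with 68% of the 16488 genes tested called, 32.5% higher and 35.5% lower. Of the members, 22 of 40 were thus called higher beside 32.5% of all genes, and 8 of 40 lower beside 35.5%. The median log2 fold change of the members was 0.98, against −0.10 over all genes tested and −0.34 over protein-coding genes. Both pladienolide B libraries lay above both DMSO libraries for 27 members and below both for 9, which over all genes held for 38.6% and 44.1%. As a share of all counts, which is scaling by library size, the 40 genes made up 0.448% and 0.431% with pladienolide B. In the DMSO libraries the share was 0.194% and 0.191%. Members with many reads weigh most in that share, so it does not describe each member. NOP56 had 47988 and 38164 reads with pladienolide B, against 11082 and 15362 in DMSO. UTP3 had 28199 and 16817 reads with pladienolide B, against 2456 and 2980 in DMSO. With only the drug and solvent groups in the fit, 21 members were called higher and 5 lower. Calls over all genes fell as well, to 4722 higher and 4933 lower of 16263, from 5358 and 5854. Leaving out either DMSO library also lowered both the member calls and the calls over all genes. With SF3B2 siRNA 0 of the 40 genes were called.

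Libraries held 35461248 to 72983584 counts. A gene had a median of 227 and 223.5 reads with pladienolide B, and of 871 to 1399.5 reads in the remaining 6 libraries. The pladienolide B libraries therefore stand apart, and how they are scaled bears on every value below. Levels are CPM (counts scaled to a common library size) on edgeR's TMM scale, which assumes that most genes do not change. With pladienolide B 68% of the genes tested were called, so that assumption may not hold here. Scaling by library size alone gave all genes a median log2 fold change of −0.97 and the members one of 0.11. The members thus stood 1.08 above all genes, where TMM put them 1.09 above. A change of scale shifts every gene by nearly the same amount, so these gaps had to be alike and are no check on the scaling. Under that scaling 15 members were called higher and 11 lower, and over all genes 3313 were called higher and 8446 lower, against 5358 and 5854 with TMM. All 4 epithelial markers checked, KRT8, KRT18, KRT19 and EPCAM, were present in every library at 14.9 TPM or more (reads per kilobase, scaled to a common sum), and lower with pladienolide B. KRT8 lay at 140 and 102 TPM with pladienolide B, against 621 and 624 TPM in DMSO, and KRT18 at 199 and 265 TPM, against 764 and 695 TPM. KRT19 lay at 42.8 and 97.1 TPM with pladienolide B, against 602 and 594 TPM in DMSO, and EPCAM at 14.9 and 24.0 TPM, against 49.7 and 62.9 TPM. Of markers of other cell types, the endothelial PECAM1 lay at 1.13 and 0.356 TPM with pladienolide B, against 16.2 and 18.6 TPM in DMSO. The fibroblast gene COL1A1 lay at 5.40 and 17.0 TPM with pladienolide B, against 19.3 and 28.4 TPM in DMSO, and COL3A1 at 0.336 and 1.55 TPM, against 1.19 and 3.77 TPM. The part of these differences in the members' values was not tested. The leukocyte markers PTPRC and CD3E, the endothelial VWF and the prostate gene KLK3 are not listed in the table, which holds only genes with at least 1 read in every library.

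**Figure D1:**
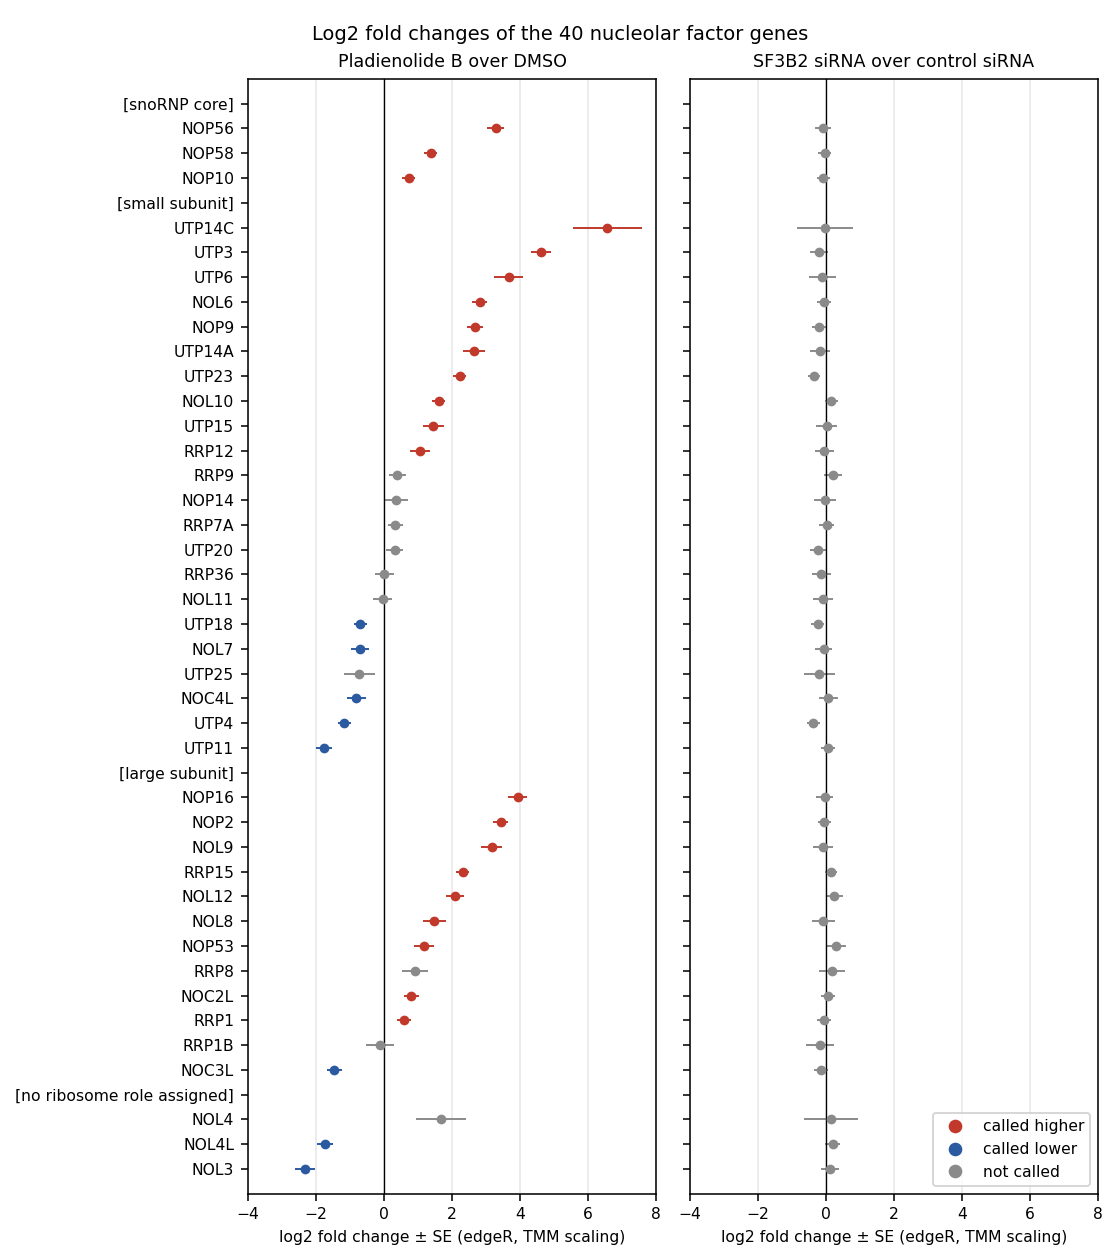
Log2 fold changes with their SE (x axis) for each of the 40 genes (rows, grouped by role), for pladienolide B over DMSO on the left and SF3B2 siRNA over control siRNA on the right. On the left the values run from −2.32 for NOL3 to 6.56 for UTP14C, with 22 genes called higher and 8 lower; on the right they run from −0.36 to 0.30, with 0 called.

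The members that encode snoRNP core proteins were called higher with pladienolide B in 3 of 3 cases, beside 32.5% of all genes. The call of NOP10 did not hold under library-size scaling or without either DMSO library. Genes of these particles outside the naming rule are given further below, and not all of them were called. NOP56, which with NOP58 holds fibrillarin on box C/D small nucleolar RNAs (snoRNAs) for the methylation of rRNA, lay at 1831 and 1624 CPM in the pladienolide B libraries, against 180.1 and 174 CPM in the DMSO libraries. Both treated libraries were far above both solvent libraries, a 9.75-fold difference with a log2 fold change of 3.29 ± 0.25 (SE) and an edgeR adjusted p of 2.61e-05. NOP58 lay at 116 and 137 CPM with pladienolide B, against 48.1 and 49.2 CPM in DMSO. The groups did not overlap, and the log2 fold change was 1.38 ± 0.19 (SE) (edgeR adjusted p = 0.000409). NOP10, the smallest protein of the box H/ACA particle that turns uridine into pseudouridine, lay at 168 and 182 CPM with pladienolide B, against 106 and 105 CPM in DMSO, again without overlap. Its log2 fold change was 0.73 ± 0.20 (SE) (edgeR adjusted p = 0.0106), but it was −0.14 under library-size scaling. Without DMSO replicate 1 it was 0.73 with an adjusted p of 0.0719 by edgeR, and without DMSO replicate 2 it was 0.71 with one of 0.0769. By the authors' TPM, a share of each library per length, its mean was 471 ± 90.9 with pladienolide B and 538 ± 24.4 in DMSO (SD, n = 2 each).

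NOP56 is itself a host of small RNAs, and 5 of the 6 RNA genes listed inside its introns had larger log2 fold changes than the host; the sixth, SNORD86, had 1 read in every library and was not tested. The 3 box C/D snoRNAs below, SNORD57 and SNORD110 from NOP56 introns and SNORD23 from a NOP53 intron, are shown because they are the kind of RNA that NOP56 and NOP58 bind; capitals mark the box C letters TGATGA and the box D letters CTGA. They are the genomic strand of the gene, 5′ to 3′, on GRCh38: SNORD57 at chr20:2656939-2657010, SNORD110 at chr20:2654212-2654286 and SNORD23 at chr19:47755853-47755962, all on the plus strand.
SNORD57: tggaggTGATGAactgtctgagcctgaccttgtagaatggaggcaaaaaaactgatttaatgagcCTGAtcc
SNORD110: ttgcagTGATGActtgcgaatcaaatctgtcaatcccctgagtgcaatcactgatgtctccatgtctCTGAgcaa
SNORD23: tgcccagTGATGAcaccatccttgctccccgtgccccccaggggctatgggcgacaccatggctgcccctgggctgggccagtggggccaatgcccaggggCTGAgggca

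SNORD57 had 1650 and 1377 reads in the pladienolide B libraries, against 37 and 67 in the DMSO libraries. On the CPM scale this was 62.9 and 58.6 with pladienolide B, against 0.601 and 0.759 in DMSO, a log2 fold change of 6.47 ± 0.28 (SE) (edgeR adjusted p = 1.75e-05). For the other 4 tested RNA genes in NOP56 both pladienolide B libraries lay above both DMSO libraries, as they did for 38.6% of all genes. Their log2 fold changes were 5.67 for SNORD110, 4.88 for SNORD56, 5.83 for the box H/ACA snoRNA SNORA51 and 7.65 for the microRNA gene MIR1292, beside 3.29 for the host. MIR1292 had 682 and 609 reads with pladienolide B, against 8 and 11 in DMSO, so its fold change starts from very few reads. SNORD23, in NOP53, lay at 12.8 and 18.3 CPM with pladienolide B, against 0.390 and 0.397 CPM in DMSO, while its host had a log2 fold change of 1.17 ± 0.29 (SE). MIR6851, in NOL6, had 24 and 43 reads with pladienolide B, against 3 and 6 in DMSO, so it passed the filter on low counts only through the pladienolide B libraries. Of 9 RNA genes nested on the same strand in members, 7 passed that filter. The libraries were made from polyadenylated RNA, and reads of a mature snoRNA cannot be told apart here from reads of host transcripts that still hold the intron.

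**Figure D2:**
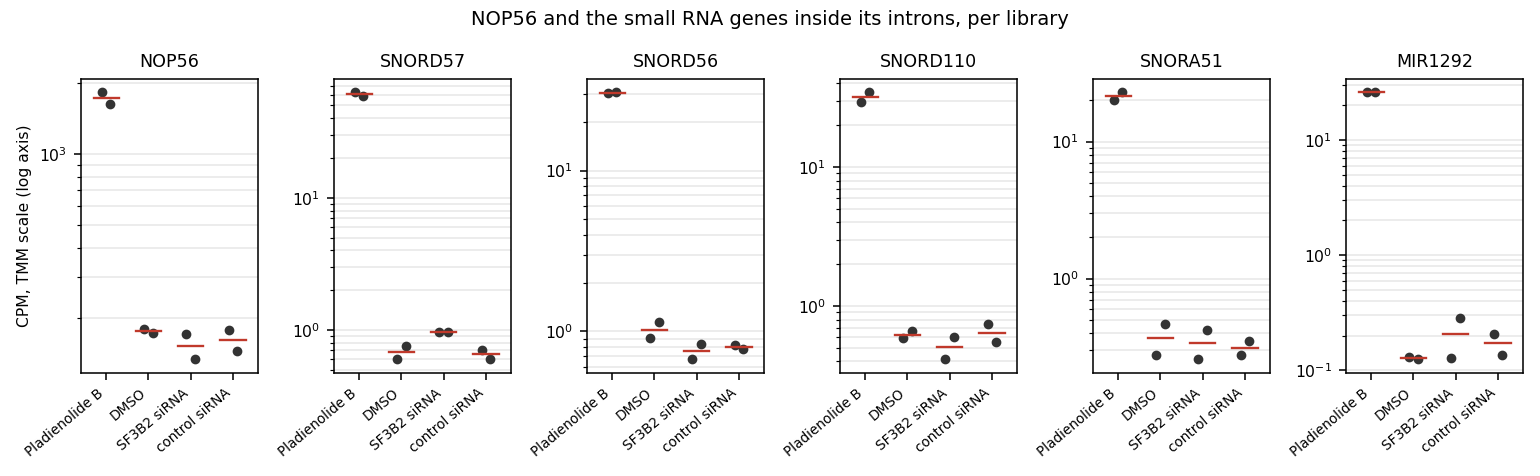
Level per library in CPM on the TMM scale (log y axis, a scale of its own in each panel) of NOP56 and 5 small RNA genes inside its introns, in the 4 groups; points are libraries and the line is the mean of 2. In each panel both pladienolide B points lie above the 6 others, and SNORD57 stands at 62.9 and 58.6 CPM, against 0.601 and 0.759 CPM in DMSO.

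Among the 22 small subunit factors 10 were called higher and 5 lower with pladienolide B, with a median log2 fold change of 0.38. Over all genes 32.5% were called higher and 35.5% lower. Under library-size scaling 8 of these factors were called higher and 8 lower, beside 3313 higher and 8446 lower of all 16488 genes. UTP3, known in yeast as Sas10, a processome subunit, is the only member with a single exon and lies at chr4:70688532-70690551. It stood at 1076 and 716 CPM with pladienolide B, against 39.9 and 33.8 CPM in DMSO. The treated libraries were many times above the solvent libraries, with a log2 fold change of 4.60 ± 0.30 (SE) and an edgeR adjusted p of 1.88e-05. UTP6, part of the UTP-B module of the processome, lay at 593 and 229.9 CPM with pladienolide B, against 34.4 and 30.7 CPM in DMSO. The treated libraries differed from each other by more than 2-fold yet both were above the solvent range, and the log2 fold change was 3.66 ± 0.44 (SE) (edgeR adjusted p = 0.000182).

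UTP14A, which in yeast activates the helicase that frees the pre-rRNA from the U3 snoRNA, and UTP14C, a copy of it that arose by reverse transcription, are both members. UTP14A lies at chrX:129906121-129929761 and its transcript has 15 exons, whereas UTP14C lies at chr13:52024691-52033600 with 2. UTP14A stood at 181 and 111 CPM with pladienolide B, against 26.0 and 20.8 CPM in DMSO, with no overlap and a log2 fold change of 2.64 ± 0.31 (SE) (edgeR adjusted p = 0.000178). UTP14C had 828 and 652 reads with pladienolide B, against 22 and 24 in DMSO, and its log2 fold change of 6.56 ± 1.02 (SE) was the highest of the 40 (edgeR adjusted p = 0.000703). Its counts also varied outside the drug comparison, with 23 and 202 reads with SF3B2 siRNA and 136 and 105 with control siRNA. The reading frames of the pair were identical at 94.8% of 2298 aligned bases, with 119 mismatches and a longest identical run of 169 bases. The first stretch of 75 bases without a gap in that alignment, from base 29 of the UTP14A frame and base 26 of the UTP14C frame, are shown because reads must be divided on such differences; capitals mark the 7 bases that differ.
UTP14A: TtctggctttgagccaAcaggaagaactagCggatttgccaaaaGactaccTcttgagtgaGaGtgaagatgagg
UTP14C: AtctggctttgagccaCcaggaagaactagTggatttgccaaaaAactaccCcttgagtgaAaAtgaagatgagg

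UTP14C also overlaps ALG11, a glycosyltransferase gene on the same strand, which stood at 200.1 and 123 CPM with pladienolide B, against 34.5 and 27.1 CPM in DMSO (log2 fold change 2.39 ± 0.28 SE, edgeR adjusted p = 0.000177). The level of UTP14C is therefore uncertain, since the sources used here do not give how shared reads were counted. The other small subunit factors called higher were NOL6, the human form of yeast Utp22, with a log2 fold change of 2.81 ± 0.22 (SE), NOP9, an RNA-binding protein of the early precursor in yeast, with 2.68 ± 0.24 (SE), and UTP23, with 2.22 ± 0.19 (SE). NOL10 followed with 1.60 ± 0.20 (SE), UTP15, of the UTP-A module, with 1.45 ± 0.32 (SE), and RRP12, which in yeast takes part in export of subunits, with 1.05 ± 0.29 (SE). Under library-size scaling the calls of UTP15 and RRP12 were lost, with log2 fold changes of 0.59 and 0.19. RRP12 also lost its call without DMSO replicate 1 (1.09, edgeR adjusted p = 0.0604) and without DMSO replicate 2 (0.98, edgeR adjusted p = 0.0833).

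The small subunit factors called lower were UTP11, UTP4, NOC4L, NOL7 and UTP18. UTP11, a processome subunit, lay at 5.80 and 6.34 CPM with pladienolide B, against 22.2 and 19.1 CPM in DMSO. Both treated libraries were far below both solvent libraries, with a log2 fold change of −1.77 ± 0.23 (SE) (edgeR adjusted p = 0.000251). UTP4, of the UTP-A module and known as cirhin, lay at 19.9 and 16.1 CPM with pladienolide B, against 40.1 and 40.3 CPM in DMSO, without overlap and with a log2 fold change of −1.16 ± 0.20 (SE) (edgeR adjusted p = 0.00133). NOC4L, which pairs with NOP14 in yeast, lay at 14.0 and 10.8 CPM with pladienolide B, against 21.5 and 22.2 CPM in DMSO, and had a log2 fold change of −0.82 ± 0.28 (SE) (edgeR adjusted p = 0.0295). NOL7 had a log2 fold change of −0.70 ± 0.26 (SE) and UTP18, of the UTP-B module, one of −0.70 ± 0.20 (SE). The calls of NOC4L and NOL7 were lost with DESeq2 (adjusted p = 0.0522 and 0.101), and those of NOC4L, NOL7 and UTP18 were lost without DMSO replicate 1 (−0.85, −0.66 and −0.64) or without DMSO replicate 2 (−0.80, −0.77 and −0.77). NOC4L and NOL7 also lost theirs without pladienolide B replicate 2 (−0.65 and −0.47) and without either control siRNA library (−0.83 and −0.71).

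Neither direction was called for the other 7 small subunit factors, whose log2 fold changes ran from −0.73 for UTP25 to 0.39 for RRP9, the protein specific to the U3 snoRNP. UTP20, a large helical scaffold of the processome, lay at 28.3 and 29.1 CPM with pladienolide B, against 24.3 and 22.1 CPM in DMSO, close together in both groups. NOP14 lay at 26.4 and 55.3 CPM with pladienolide B, against 33.7 and 29.7 CPM in DMSO, so that the treated libraries fell on either side of the solvent ones. UTP25 lay at 6.75 and 21.9 CPM with pladienolide B, against 24.0 and 23.3 CPM in DMSO, with both treated libraries below the solvent ones but far from each other. Without pladienolide B replicate 2 UTP25 had a log2 fold change of −1.82 and was called lower (edgeR adjusted p = 0.000108), and without replicate 1 NOP14 had one of 0.80 and was called higher (edgeR adjusted p = 0.00493). NOL11 was called lower (−0.57) and RRP7A higher (0.52) without replicate 2, with edgeR adjusted p-values of 0.00922 and 0.0432. NOP14-AS1, antisense to NOP14, was called higher with a log2 fold change of 2.48 ± 0.36 (SE); the sources used here do not give whether counting used the strand.

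The large subunit factors had the higher median, 1.33 against 0.38 for the small subunit factors. Of the 12, 9 were called higher and 1 lower, beside 32.5% and 35.5% of all genes. Under library-size scaling 5 were called higher and 1 lower, beside 3313 higher and 8446 lower of all 16488 genes. NOP16, a nucleolar assembly factor first known in yeast, lay at 518 and 345 CPM with pladienolide B, against 28.6 and 28.3 CPM in DMSO. Both treated libraries were more than 10-fold above the solvent libraries, with a log2 fold change of 3.92 ± 0.28 (SE) (edgeR adjusted p = 2.37e-05). NOP2, the enzyme that methylates a cytosine of 28S rRNA, lay at 609.5 and 726 CPM with pladienolide B, against 61.6 and 62.3 CPM in DMSO. The libraries of each group lay close together, and the log2 fold change was 3.43 ± 0.21 (SE) (edgeR adjusted p = 1.85e-05). NOL9, a kinase that acts on the 5′ ends made when the spacer between 5.8S and 28S rRNA is cut, rose with a log2 fold change of 3.17 ± 0.31 (SE). RRP15 rose with one of 2.31 ± 0.19 (SE) and NOL12, related to a yeast exonuclease, with one of 2.08 ± 0.26 (SE). NOL8 followed with 1.48 ± 0.34 (SE) and NOP53, which in yeast brings the RNA exosome to the large subunit, with 1.17 ± 0.29 (SE); under library-size scaling these calls were lost, with log2 fold changes of 0.62 and 0.31. NOP53 lost its call without DMSO replicate 2 as well (0.965, edgeR adjusted p = 0.0665).

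NOC2L and NOC3L encode proteins that bind each other in yeast. NOC2L lay at 86.9 and 116 CPM with pladienolide B, against 59.5 and 57.3 CPM in DMSO, a log2 fold change of 0.80 ± 0.22 (SE) (edgeR adjusted p = 0.0122). NOC3L lay at 6.64 and 8.13 CPM with pladienolide B, against 19.3 and 21.5 CPM in DMSO, a log2 fold change of −1.46 ± 0.22 (SE) (edgeR adjusted p = 0.000532). NOC3L was below the solvent libraries in both treated libraries, whereas NOC2L was above them, although under library-size scaling NOC2L was not called and had a log2 fold change of −0.064. NOC2L also lost its call without DMSO replicate 1 (0.82, edgeR adjusted p = 0.0685) and without DMSO replicate 2 (0.76, edgeR adjusted p = 0.0852). The difference between the genes was not tested.

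RRP1 and RRP1B are paralogs on the same arm of chromosome 21. RRP1 lay at 120.0 and 114 CPM with pladienolide B, against 77.8 and 77.6 CPM in DMSO, without overlap, and had a log2 fold change of 0.59 ± 0.20 (SE) (edgeR adjusted p = 0.0316). Under library-size scaling its log2 fold change was −0.28 and not called, and it lay at 0.58 and was not called without either DMSO library or either control siRNA library. RRP1B lay at 29.9 and 81.4 CPM with pladienolide B, against 65.7 and 54.9 CPM in DMSO, so that the treated libraries lay on both sides of the solvent libraries, and it was not called (−0.12 ± 0.41 SE). Without pladienolide B replicate 2 its log2 fold change was −1.02 and it was called lower (edgeR adjusted p = 0.00184). RRP8, which methylates an adenine of 28S rRNA, was not called either, at 37.5 and 15.2 CPM with pladienolide B, against 14.98 and 12.99 CPM in DMSO, but was called higher with DESeq2 (adjusted p = 0.0153) and without pladienolide B replicate 2 (1.41).

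Of the 3 genes with no ribosome role assigned, 2 were called lower, beside 35.5% of all genes, and 1, NOL4, was not called. NOL3, better known as ARC, an inhibitor of apoptosis, lay at 6.87 and 11.7 CPM with pladienolide B, against 46.0 and 46.3 CPM in DMSO. This was the lowest log2 fold change of the 40, at −2.32 ± 0.29 (SE) (edgeR adjusted p = 0.000234). NOL4L lay at 9.46 and 12.2 CPM with pladienolide B, against 33.7 and 38.9 CPM in DMSO, without overlap (log2 fold change −1.74 ± 0.24 SE, edgeR adjusted p = 0.000335). NOL4 was close to the limit of detection, at 1.37 and 0.468 CPM with pladienolide B, against 0.211 and 0.363 CPM in DMSO, and was not called by edgeR (adjusted p = 0.0742). DESeq2 called it higher (adjusted p = 0.0482), as did edgeR without pladienolide B replicate 2 (2.21, adjusted p = 0.0245).

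**Figure D3:**
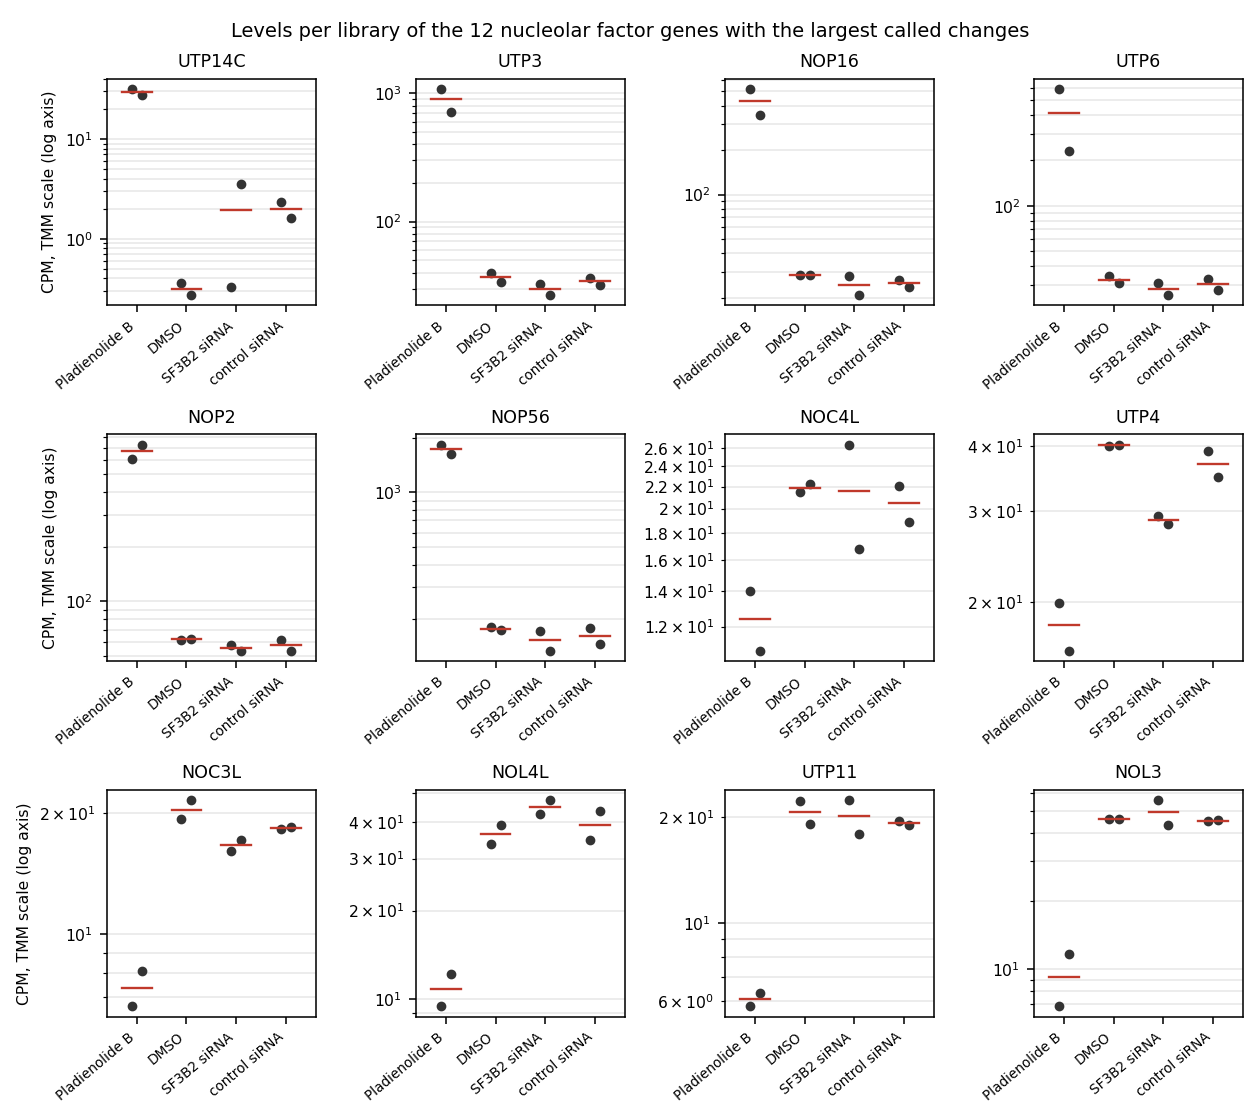
Level per library in CPM on the TMM scale (log y axis, a scale of its own in each panel) for the 6 members with the highest and the 6 with the lowest log2 fold change among those called; points are libraries and the line is the mean of 2 libraries. The pladienolide B points lie apart from both DMSO points in each of the 12 panels, from 1076 and 716 CPM against 39.9 and 33.8 CPM for UTP3 to 6.87 and 11.7 CPM against 46.0 and 46.3 CPM for NOL3.

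Compared per length, in TPM, the members spanned more than 3 orders of magnitude in DMSO. The means there ran from 0.140 TPM for UTP14C and 0.166 TPM for NOL4 to 210.5 TPM for NOP53, 231 TPM for NOP56 and 538 TPM for NOP10. With pladienolide B the order at the top changed, with NOP56 at 1124 TPM, NOP16 at 625 TPM, UTP3 at 590.2 TPM and NOP10 at 471 TPM. NOP16 and UTP3 had stood at 82.3 and 47.0 TPM in DMSO. The libraries of a group differed by less than 2-fold for most members. The median absolute log2 gap between replicates over the members was 0.40 with pladienolide B and 0.11 in DMSO, against 0.60 and 0.18 over all genes. It was 0.29 with SF3B2 siRNA and 0.18 with control siRNA, against 0.32 and 0.17 over all genes. A gap of 2-fold or more between the pladienolide B libraries was seen for 7 of 40 members, 17.5%, against 26.5% of all genes. These were NOL4, NOL8, NOP14, RRP1B, RRP8, UTP6 and UTP25. Between the SF3B2 siRNA libraries NOL4 and UTP14C had such a gap, 5% of members against 6.14% of all genes.

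Gene structure was compared because pladienolide B acts on splicing. Over protein-coding genes the median log2 fold change fell with exon number, from 1.56 for 344 genes of 1 exon through 0.23 for 3 to 5 exons to −1.02 for more than 20 exons. The members had higher medians than these in each class, at 4.60 for the 1 member with 1 exon and 3.65 for the 2 with 2. The medians were 2.27 for the 4 members with 3 to 5 exons and 0.34 for the 7 with 6 to 10. They were 0.80 for the 21 members with 11 to 20 exons and 1.05 for the 5 with more than 20. Members called higher had a median of 13 exons (1 to 34), those not called 13.5 (7 to 62) and those called lower 12.5 (4 to 21). Across the 40 members Spearman's rho between exon number and log2 fold change was −0.15, and across 12799 protein-coding genes −0.27; genes of 1 library set share depth and scaling, and no p is given. The largest rises were those of UTP14C, with 2 exons, UTP3, with 1, and NOP16, with 5. UTP6, with 19 exons, and NOP2, with 16, also rose by more than 10-fold, while NOL3, with 4 exons, fell.

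**Figure D4:**
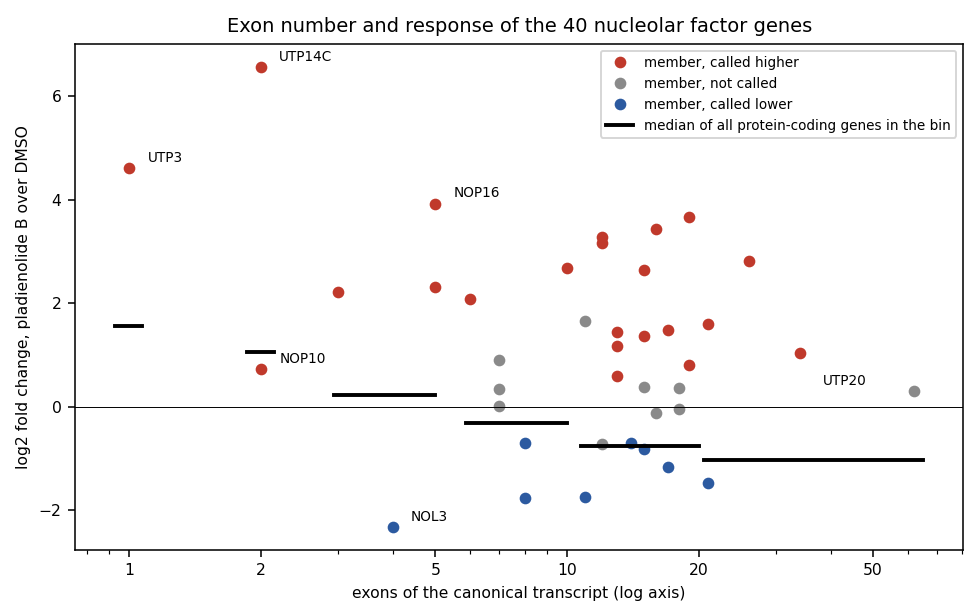
Log2 fold change, pladienolide B over DMSO (y axis), against the number of exons of the canonical GENCODE transcript (log x axis); points are the 40 members, coloured by call, and black bars are medians of all protein-coding genes in exon classes. The bars step down from 1.56 at 1 exon to −1.02 above 20 exons, while members called higher run from UTP3 with 1 exon to RRP12 with 34.

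Promoters were searched for the letters CACGTG, which read the same on both strands, from 250 bases before to 50 after the start given by RefSeq (GRCh38.p14). A window was found for 35 of the 40 members, and 13 of the 35, 37.1%, held the motif, as did 10.1% of 10516 protein-coding genes of the table and 7.43% of all 27305 windows. It stood in 5 of 18 members called higher, 4 of 9 not called and 4 of 8 called lower. The stretches below, 5′ to 3′ on the strand of the gene, show it in members of either direction, NOP10 and UTP14A called higher and NOL7 and UTP18 called lower. Capitals mark the motif. Only stretches that end before the start are shown, so matches close to the start are left out. From the start, the first base of the motif lies at −170 in NOP10, −241 in UTP14A, −149 in NOL7 and −89 in UTP18. NOP10 also has a match at −11 and UTP18 one at 5. NOP10 is at chr15:34343274-34343333 on the minus strand, and the others, on the plus strand, are UTP14A at chrX:129905914-129905955, NOL7 at chr6:13615159-13615218 and UTP18 at chr17:51260430-51260489.
NOP10: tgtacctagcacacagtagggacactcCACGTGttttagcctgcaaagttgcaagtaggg
UTP14A: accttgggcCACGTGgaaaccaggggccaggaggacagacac
NOL7: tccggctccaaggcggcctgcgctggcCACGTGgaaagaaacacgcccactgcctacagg
UTP18: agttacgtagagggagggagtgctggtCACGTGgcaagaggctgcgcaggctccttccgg
A match describes the letters and not a bound site.

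With SF3B2 siRNA none of the members passed the test. The target itself lay at 36.4 and 30.1 CPM with SF3B2 siRNA, against 228 and 228 CPM with control siRNA (log2 fold change −2.78 ± 0.24 SE), and at an edgeR adjusted p of 0.0513 it was not called either. By edgeR 0 of 40 members were called and 0 had an unadjusted p under 0.05, where 0% of all genes were called and 3.87% had an unadjusted p under 0.05; DESeq2 called 0 members and 32 genes in all. The members' log2 fold changes ran from −0.36 to 0.30 with a median of −0.05, and their SEs from 0.18 to 0.81 with a median of 0.26. Both SF3B2 siRNA libraries lay above both control libraries for 4 members and below both for 8, against 19.9% and 19.2% of all genes.

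The lowest value was that of UTP4, at 29.4 and 28.3 CPM with SF3B2 siRNA, against 39.1 and 34.9 CPM with control siRNA. The groups did not overlap, but the log2 fold change of −0.36 ± 0.20 (SE) was not called (edgeR adjusted p = 0.9999). UTP23, at 19.9 and 20.7 CPM with SF3B2 siRNA, against 25.4 and 26.1 CPM with control siRNA, also had groups that did not overlap, with a log2 fold change of −0.34 ± 0.18 (SE). UTP18 lay at 43.5 and 41.5 CPM with SF3B2 siRNA, against 51.4 and 48.7 CPM with control siRNA, likewise apart (log2 fold change −0.24 ± 0.19 SE). The highest were NOP53, NOL12 and RRP9. NOP53 lay at 224 and 148 CPM with SF3B2 siRNA, against 168 and 134 CPM with control siRNA, where the groups overlapped (log2 fold change 0.30 ± 0.28 SE). NOL12 lay at 13.8 and 10.7 CPM with SF3B2 siRNA, against 10.6 and 10.2 CPM with control siRNA (log2 fold change 0.24 ± 0.25 SE), and RRP9 at 36.0 and 23.6 CPM, against 27.8 and 23.8 CPM (log2 fold change 0.21 ± 0.25 SE). Members with the largest rise under pladienolide B showed no call here. NOP56 lay at 172 and 134 CPM with SF3B2 siRNA, against 179 and 146 CPM with control siRNA, and UTP3 at 32.7 and 26.7 CPM, against 36.5 and 31.8 CPM.

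The difference between the drug effect and the siRNA effect was itself tested. It was called for 23 of 40 members, higher for 18 and lower for 5, where 53.7% of all genes were called, 25.2% higher and 28.5% lower. UTP14C, UTP3, NOP16, UTP6, NOP2 and NOP56 were among the 18, with differences of 3.37 to 6.59 on the log2 scale. The 5 with a lower drug effect were NOL3, NOL4L, UTP11, NOC3L and UTP4. Drug and siRNA also differ in time, 24 h against 72 h, and in the way they are given. Between control siRNA and DMSO 0 members were called by edgeR and 0 by DESeq2, while edgeR called 0% of all genes, and 1 member, UTP14C, had an unadjusted p under 0.05, with a log2 fold change of 2.65, beside 0.922% of all genes. Both control siRNA libraries lay above both DMSO libraries for 4 members and below both for 9, against 17.2% and 17.6% of all genes.

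Other genes of ribosome production, taken from 7 lists, were called higher more often than lower with pladienolide B on the TMM scale. Of 159 listed genes outside the members, 85 were called higher and 33 lower by edgeR, with a median log2 fold change of 0.78. Over all genes tested, the background for each list below, 32.5% were called higher and 35.5% lower. Under library-size scaling 56 of the 159 were called lower. Over all 16488 genes that scaling called 3313 higher and 8446 lower. RNA polymerase I, which makes the precursor, had 15 of 20 genes called higher and 2 lower, led by POLR1G with a log2 fold change of 4.05 ± 0.49 (SE), but under library-size scaling 8 were called higher and 4 lower. The large subunit assembly list had 33 of 51 higher and 6 lower, with 13 lower under library-size scaling and 11 lower without pladienolide B replicate 2. PES1, a core factor for 5.8S and 28S maturation, lay at 887 and 1235 CPM with pladienolide B, against 56.9 and 50.5 CPM in DMSO (log2 fold change 4.30 ± 0.27 SE, edgeR adjusted p = 1.85e-05). Of the small subunit processome list, which holds 3 of the 40 members, 23 of 45 were higher and 10 lower (16 lower under library-size scaling). BYSL, a late small subunit factor, was highest with 4.54 ± 0.41 (SE), and FCF1, a nuclease-like processome subunit, lowest with −2.92 ± 0.22 (SE).

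Of the box C/D list, 5 of 10 genes were higher and 3 lower, and NOP56 and NOP58 are among the 5. SNU13, which binds the snoRNA directly, lay at 263 and 248 CPM with pladienolide B, against 74.5 and 73.0 CPM in DMSO (log2 fold change 1.79 ± 0.19 SE), while the assembly factor ZNHIT6 had the lowest value, −4.45 ± 0.25 (SE). FBL, the methyltransferase fibrillarin, named here because it completes the particle, lay at 141 and 44.1 CPM with pladienolide B, against 72.3 and 67.1 CPM in DMSO, and was not called (edgeR adjusted p = 0.446). Without pladienolide B replicate 1 FBL had a log2 fold change of −0.67 and without replicate 2 one of 1.01, and it was called in both cases. Of the box H/ACA list, 4 of 6 genes were called higher and 0 lower (2 and 2 under library-size scaling). Those called were the member NOP10, SHQ1 with 2.24 ± 0.35 (SE), GAR1 with 1.73 ± 0.28 (SE) and DKC1, the pseudouridine synthase, with 1.05 ± 0.26 (SE). NHP2 and NAF1 were not called, with −0.18 ± 0.34 (SE) and −0.20 ± 0.28 (SE). NHP2 lay at 71.75 and 35.66 CPM with pladienolide B, against 63.45 and 58.01 CPM in DMSO. Under library-size scaling NHP2 was called lower, with −1.06, and DKC1 lost its call, with 0.19. Without pladienolide B replicate 1 NHP2 had a log2 fold change of −0.77. Of nucleases and the RNA exosome, 3 of them members, 9 of 30 were higher and 11 lower, shares of 30% and 36.7% near the 32.5% and 35.5% of all genes. The list of nucleolar scaffold proteins, 2 of them members, had 5 of 11 higher and 2 lower, with 2 higher and 4 lower under library-size scaling and 4 lower without pladienolide B replicate 2. In it NOLC1 had 2.70 ± 0.28 (SE) and NPM1, the abundant nucleolar chaperone, had −1.12 ± 0.27 (SE).

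Outside the members, the genes whose levels over the 8 libraries were most like the mean of the standardised members were MCM7, NAPRT, MRPS18B, MIS12 and DPH2, with Pearson's r from 0.996 to 0.999. All 8 libraries share the separation of the pladienolide B pair, so the value is a description. In the authors' deposited table, with its own test, 22 members were higher and 8 lower with pladienolide B at an adjusted p-value under 0.05. Over all 17010 genes 5323 were higher and 6125 lower there. The set differs from the edgeR calls. NOL4 was called higher there (adjusted p = 0.0355 by the authors' test) and RRP1 was not called (adjusted p = 0.109 by that test). With SF3B2 siRNA 0 members differed, and over all genes 4 were higher and 10 lower.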

How the data were processed

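RNA-seq libraries of PC3 cells were analysed from 1 table of the whole series. The deposited read counts per gene are whole numbers, not normalized, and the deposited TPM were used for levels between genes. The deposited FPKM, scaled for depth and length per the file headers, were not used. The deposited log2 values are counts scaled by 1 constant per library, which served as a scaling alternative. The authors' own comparisons hold a score (a signed fold change) and a p-value per gene, from a test the sources used here do not give. The submitters' processing notes name edgeR, Bowtie2 2.3.5.1, HISAT2 2.10, Trimmomatic 0.38 and the build GRCh38, without their roles. The sources used here do not give the counting program, its annotation or its use of strand. The table lists only genes with at least 1 read in every library, so a gene with 0 reads in any library was not analysed here.

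The test was edgeR 4.0.16 in R 4.3.3 (quasi-likelihood F-test, robust dispersion, TMM, filterByExpr with a minimum count of 10, two-sided). All 8 libraries entered 1 fit with 4 residual degrees of freedom, and a call means a p, adjusted after Benjamini and Hochberg, under 0.05 over the 16488 genes tested. The fit was checked on simulated counts. SE is the log2 fold change divided by the root of F. With 2 libraries a group an exact permutation test cannot reach 0.05, and none was run. Alternatives were other scalings, no filter, DESeq2 1.42.0, fits of 2 groups, a replicate block and each library left out. Exons and overlaps come from GENCODE release 44 and promoters from RefSeq.

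Total counts of 35461248 to 72983584 per library set the precision. Members in full are the 6 highest and 6 lowest of those called with pladienolide B, the 3 highest and 3 lowest with SF3B2 siRNA and a fixed set by role. From each list of other genes, at most the 2 highest and 2 lowest called were named. Members and lists were chosen with earlier results of these data known. Replicates with the same number did not share a stated batch, so samples were not paired.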

Additional observations from a re-analysis of the deposited data

How the results depend on the processing

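Under 15 alternatives 20 of the 30 called members kept their direction and call, and 10 lost the call under at least 1: NOC4L and NOL7 most often, then RRP1, NOC2L, NOP10, RRP12, UTP18, NOP53, NOL8 and UTP15. Library-size scaling changed the sign of 8 members. Of these, 4 had a call under one of the scalings, with log2 fold changes of −0.064 (NOC2L), −0.14 (NOP10), −0.28 (RRP1) and −0.86 (RRP36, adjusted p = 0.0177 by edgeR). NOP14, RRP7A, RRP9 and UTP20 had none, at −0.49, −0.54, −0.47 and −0.56. The RRP7A copy RRP7BP came to −0.86. That scaling takes the median of all genes from −0.10 to −0.97 and gave a member median of 0.11. It called 56 of 159 other ribosome genes lower, beside 8446 of all 16488 genes. FBL ran from −0.67 without pladienolide B replicate 1 to 1.01 without replicate 2. Over the libraries left out in turn, members called higher ran from 17 to 25 and lower from 5 to 9, the member median from 0.74 (without pladienolide B replicate 2) to 1.05, and the called box H/ACA genes from 2 to 5. Fitting only the 2 groups of the contrast left 5 members called lower. For SF3B2 siRNA against control siRNA, genes called were 0 with TMM, 1 with RLE scaling, 1 with only those groups, 32 with DESeq2 and 0 to 1 with a library left out, and members called were 0 throughout. The replicate block, by numbers that the labels tie to no shared batch (correlations of same-numbered deviations 0.12 to 0.43), kept all 30 member calls, with 22 higher and 8 lower. The cause was not tested. Depth limits the members of low count, NOL4 and UTP14C, most; a shared loss of RNA per cell cannot be told apart from a change of scale.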
